A study of Drosophila melanogaster with 9 samples.

Results

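The comparison described here sets the 3 Psi RNAi libraries of wing imaginal discs directly against the 3 Myc RNAi libraries, across all genes with enough counts to be tested. The discs are the epithelial sacs of the Drosophila larva that form the adult wing and notum. Of 17471 genes counted, 14229 had at least 1 count in the 9 libraries of the series and 9235 passed the count filter and were tested. The 3 control libraries entered the comparison only to show which of the knockdowns had moved a gene.

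Per the labels, the Psi RNAi genotype was tsGAL80;tubG4/Psi RNAi, from hairpin stock V105135, and the Myc RNAi genotype was tsGAL80;tubG4/Myc RNAi, from hairpin stock V2947. The controls were tsGAL80;tubG4/+, with stock BL39831 in place of a hairpin stock. All groups therefore carried the GAL4 driver under the tubulin promoter (BL5138), which is active in every tissue, together with a temperature-sensitive GAL80 (BL7019) that holds GAL4 inactive until the larvae are shifted to a warmer temperature. Knockdown lasted 3 days, and each library came from 60 discs pooled from lots of 20. The sources disagree on whether the larvae were in the middle of the last instar or wandering and on the temperature of the shift. They also give the control counts the name of a white-eyed strain, which leaves the control genotype uncertain. Each knockdown was made with 1 hairpin stock, so the effect of losing the gene product and the effect of the stock's own transgene and background cannot be told apart. Whether pools within a group stem from separate crosses is not stated, so the p-values rest on the spread among pools, which may be technical.

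Psi is the only Drosophila member of the FUSE-binding protein family, a KH-domain protein that binds single-stranded nucleic acid, acts in splicing of the P element and other transcripts, and promotes transcription of Myc. Myc is a helix-loop-helix leucine zipper transcription factor best known in the fly for driving cell growth through genes of ribosome production and translation. The comparison asks how the transcriptomes of discs depleted of the regulator and of discs depleted of one of its targets differ.

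Total gene counts ranged from 28348413 to 29438682 per Psi RNAi library and from 26287040 to 32835770 per Myc RNAi library, so that 3 counts were worth between 0.0845 and 0.114 CPM over the series, CPM being the counts of a gene per 1000000 counts of its library. Levels are given as CPM on library sizes scaled by the trimmed mean of M values (TMM), log2 differences are Psi RNAi minus Myc RNAi unless stated, and calls are at adjusted p values below 0.01 in edgeR's quasi-likelihood test. The log2 levels of libraries correlated at 0.965 to 0.987 within Psi RNAi, 0.984 to 0.985 within Myc RNAi and 0.951 to 0.971 between these groups, as a description. The discs of each library expressed the wing disc marker genes. Psi RNAi replicate 1 and Myc RNAi replicate 3 stood apart from the others of their groups by RNA of gut and salivary gland genes, described with the other marker lists at the end, and counts that turn on them are given also without both.

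The targeted genes were read first. Psi (FBgn0014870, chromosome 2R, 16861321-16867714 in Release 6) stood at 335, 322 and 323 CPM in the controls, at 74.7, 65.7 and 61.7 CPM in the Psi RNAi libraries and at 346, 311 and 307 CPM in the Myc RNAi libraries. The knockdown of Psi was thus visible in each Psi RNAi library with no overlap, at a log2 difference of -2.25 ± 0.08 (SE, n = 3 against 3, adjusted p = 4.80e-08), and Psi did not move detectably with Myc RNAi (log2 change from control -0.03).

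Myc (FBgn0262656, chromosome X, 3373159-3391697) stood at 150, 147 and 139 CPM in the controls, at 107, 118 and 108 CPM in Psi RNAi and at 132, 109 and 103 CPM in Myc RNAi. The knockdown groups overlapped for Myc mRNA, and its level was not called different between them, with a log2 difference of -0.05 ± 0.09 and a 95% interval of -0.24 to 0.14 (adjusted p = 0.713). Against control, the log2 change of Myc mRNA was -0.39 in Psi RNAi (adjusted p = 0.0214) and -0.34 in Myc RNAi (adjusted p = 0.0146), neither past the threshold. Even so, every library of both knockdowns lay below every control library. The paper, which tested with DESeq2 at the same threshold, reports a significant fall of Myc mRNA with Psi knockdown. Since Myc mRNA did not differ detectably between the knockdowns, the libraries labelled Myc RNAi are set apart from Psi RNAi by their label and by the genes below.

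Between the knockdowns, 2060 of the 9235 genes tested were called different (22.3%). Of these, 1180 were higher in Psi RNAi than in Myc RNAi (12.8% of genes tested) and 880 were lower (9.53%). The 3 Psi RNAi libraries did not overlap the 3 Myc RNAi libraries in 4238 genes (45.9%), among which were all 2060 called genes. The genes higher in Psi RNAi had a median absolute log2 difference of 0.55, and 290 of them (24.6%) differed by more than 1. The lower genes had a median of 0.48, and 209 (23.8%) differed by more than 1. Without Myc RNAi replicate 1 the lower genes numbered 519, and without Psi RNAi replicate 2 they numbered 579. The direction of the calls depended on the scaling of the libraries. With scaling by library totals alone the median of all tested genes shifted by -0.15, 761 genes were called higher and 2132 lower, and the share of higher genes among the calls moved from 57.3% to 26.3%, although 0 of the 2060 calls were called in the other direction.

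**Figure D1:**
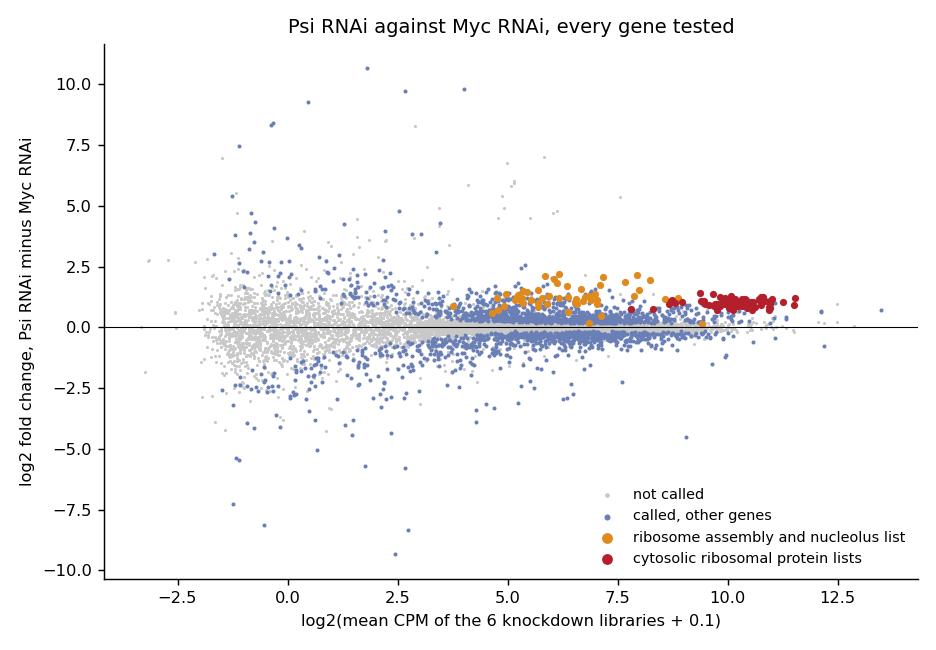
Log2 difference Psi RNAi minus Myc RNAi (vertical axis) against the log2 mean CPM of the 6 knockdown libraries (horizontal axis, 0.1 added), 1 point per gene tested, grey where not called and coloured where called, with ribosome assembly genes in orange and cytosolic ribosomal proteins in red. The ribosomal proteins form a band near a difference of 1 at the highest levels, and the assembly genes lie between 0.15 and 2.18.

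The higher and lower genes differed in what kind of transcripts they were. Genes higher in Psi RNAi were short, with a median exonic length of 1652 bases, and genes lower in Psi RNAi were long, at 3040 bases, against 2095 bases for genes not called. The higher genes had a median level of 75.9 CPM in Psi RNAi and at 48.9 CPM in Myc RNAi, and the lower genes 44.5 CPM and 64 CPM. By chromosome arm, the percentage of tested genes called higher and lower was close to the whole on 2L (13.1 and 8.99), 2R (12.1 and 10.5), 3L (12.4 and 10.2), 3R (13.5 and 9.02) and X (12.5 and 8.31). The small chromosome 4, with 91 genes tested, had 9 higher (9.89%) and 17 lower (18.7%). These are descriptions without a test, since genes are not independent.

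The controls show from which side a difference came. Against control, 376 of the 9235 genes were called in Psi RNAi (4.07%) and 1754 in Myc RNAi (19.0%), and both contrasts share the same 3 control libraries. Of the 2060 genes called between the knockdowns, 1213 (58.9%) were called against control in Myc RNAi only, 187 (9.08%) in Psi RNAi only, 34 (1.65%) in both in the same direction, 31 (1.5%) in both in opposite directions, and 595 (28.9%) in neither. In the genes of the Myc RNAi class, 824 were higher in Psi RNAi, at median log2 changes from control of 0.01 in Psi RNAi and -0.60 in Myc RNAi. The other 389 were lower in Psi RNAi, at -0.01 and 0.48. In the genes of the Psi RNAi class, the 76 higher genes had medians of 1.14 in Psi RNAi and 0.00 in Myc RNAi, and the 111 lower genes -0.52 and 0.01. The class called in neither held small changes, with a median absolute difference of 0.37 between the knockdowns. In 578 of its 595 genes (97.1%) the point estimates against control had opposite signs, against 32.1% of genes not called. The choice of the class favours such signs, since its genes differ between the knockdowns without passing the threshold against control. The share therefore says nothing about opposite regulation. The sizes of the smaller classes moved by more than 1.5 times when single libraries were left out. The Psi RNAi class fell from 187 to 75 genes without Psi RNAi replicate 2, to 86 without Psi RNAi replicate 1 and to 91 without control replicate 1.

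**Figure D2:**
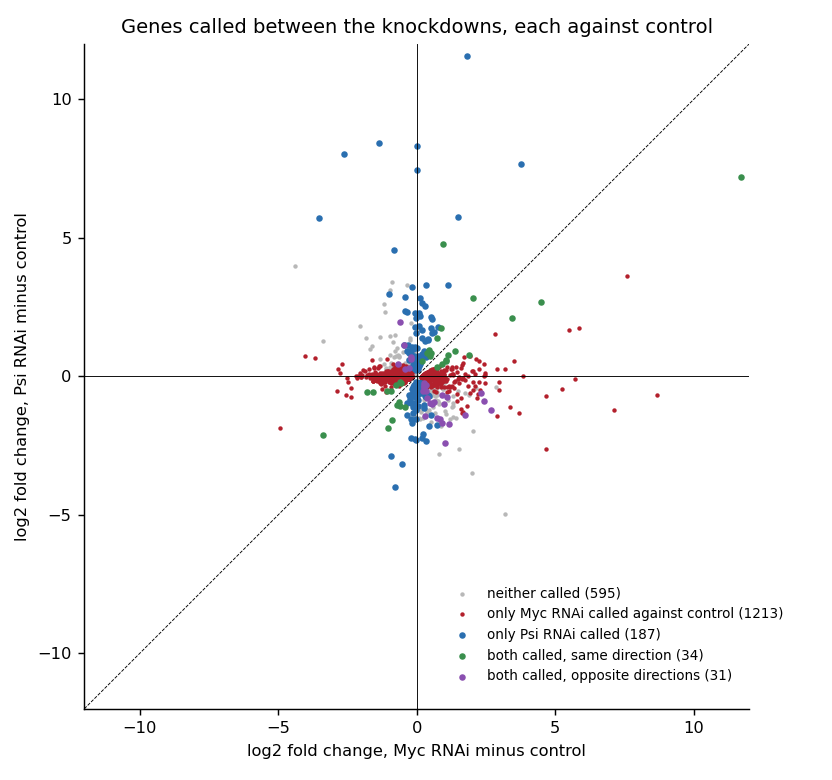
Log2 change from control in Psi RNAi (vertical axis) against that in Myc RNAi (horizontal axis), 1 point per gene called between the knockdowns and coloured by which knockdown was also called against control, with a dashed line where both changes are equal. Most points lie along the horizontal axis because 1213 of 2060 genes were called against control in Myc RNAi only, and both axes share the 3 control libraries.

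The largest coherent group of differences was the protein synthesis machinery, which was higher in Psi RNAi. Ribosomal proteins of the cytosol, the structural subunits of the ribosome, made up 13.1%, 13% and 12.4% of gene counts in the Psi RNAi libraries and 7.04%, 7.12% and 7.19% in the Myc RNAi libraries, with the controls at 12.5%, 12.5% and 12.2%. The share was higher in each Psi RNAi library than in any Myc RNAi library (exact two-sided permutation test, p = 0.1, the smallest that 3 against 3 can give). Of the 48 large-subunit genes, 47 were called higher in Psi RNAi and 0 lower, with a median log2 difference of 1.05 and a range of 0.71 to 1.41, and of the 33 small-subunit genes all 33 were higher, with a median of 0.92 and a range of 0.70 to 1.35. Over all tested genes the median was 0.01, and 12.8% were called higher and 9.53% lower. RpL38 was the gene not called, at a difference of 1.0 (adjusted p = 0.0104). Both counts were the same with scaling by totals and without any single library.

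RpS20, a small-subunit protein (chromosome 3R, 20822181-20823356), stood at 1178, 1191 and 1142 CPM in Psi RNAi and at 452, 461 and 460 CPM in Myc RNAi. The groups lay far apart, with little spread inside either, for a log2 difference of 1.35 ± 0.03 (adjusted p = 3.99e-08). RpL3, of the peptidyl transferase region of the large subunit, stood at 4010, 4249 and 4027 CPM against 1786, 1817 and 1784 CPM, a difference of 1.19. RpL34b (1.41), RpL13 (1.30) and RpL8 (1.24) were among the 10 higher genes of smallest p. RpL34b has a close paralogue, RpL34a, and the files do not show how read pairs common to both were assigned.

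Genes that assemble ribosomes were also higher in Psi RNAi, over a wider range. Of 52 tested genes for ribosome assembly and the nucleolus, 50 were called higher in Psi RNAi and 0 lower, with a median of 1.21 and a range of 0.15 to 2.18. Non2 (0.15) and eIF6 (0.18) were not called. Fib encodes fibrillarin, the methyltransferase of box C/D small nucleolar ribonucleoproteins that modify ribosomal RNA. Fib stood at 230, 240 and 223 CPM in Psi RNAi and at 52, 55.3 and 56.8 CPM in Myc RNAi, with controls at 254, 231 and 240 CPM. The Psi RNAi libraries lay close to the controls while the Myc RNAi libraries lay far below, and the log2 difference was 2.08 ± 0.05 (adjusted p = 3.99e-08). The partner protein hoip, which binds the kink-turn of those small RNAs, stood at 122, 123 and 110 CPM against 24.9, 27.9 and 25.6 CPM (2.18 ± 0.06). The box H/ACA particle, which makes pseudouridine, differed by as much, with CG4038, named Gar1 in the reference, at 2.13 and the pseudouridine synthase Nop60B at 1.95. Further members of small p were l(1)G0020 (1.68), the nucleolar phosphoprotein Nopp140 (1.55) and mbm (1.47).

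Transcripts that carry small nucleolar RNAs in their introns followed the same direction. Of 7 host genes of the Uhg type, which have no long reading frame, 6 were called higher in Psi RNAi and 0 lower, with a median of 1.11, led by Uhg2 (1.18 ± 0.08, adjusted p = 2.38e-06) and Uhg4. Uhg4 stood at 41, 38.8 and 35.1 CPM in Psi RNAi and at 14.2, 17 and 12 CPM in Myc RNAi, with no overlap. The small nucleolar RNA genes themselves, a family looked at after values were seen, had 5 of 61 tested genes called higher and 0 lower. That is a smaller share than the 12.8% called higher over all genes, at a median of 0.74. The libraries were made from polyadenylated RNA, for which such short RNAs are not the target.

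The polymerases that transcribe ribosomal and transfer RNA were also higher in Psi RNAi. Of 19 tested subunits and factors of RNA polymerase I and III, 15 were called higher and 0 lower, with a median of 0.61. RpI135, the second largest subunit of RNA polymerase I, stood at 86.5, 98.3 and 91.8 CPM in Psi RNAi and at 26.4, 24.6 and 28.9 CPM in Myc RNAi (1.79 ± 0.08, adjusted p = 1.24e-07). The largest subunit, RpI1, differed by 1.51. CG18600, named Polr1E in the reference, was called against control in Psi RNAi as well. Its libraries read 62.4, 64.1 and 69.3 CPM in control, 47.1, 46.5 and 40 CPM in Psi RNAi and at 18.2, 19.6 and 18.4 CPM in Myc RNAi, so that it fell in both knockdowns and fell further in Myc RNAi.

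Translation factors, the proteins that start, extend and end protein chains, were higher in Psi RNAi in 35 of 39 genes and lower in 0, with a median of 0.47. The elongation factor genes Ef1gamma (1.07), Ef1beta (0.97), Ef1alpha48D (0.71) and EF2 (0.68) led them. Ef1alpha48D, which brings aminoacyl-tRNA to the ribosome, stood at 14305, 14813 and 13930 CPM against 8504, 9134 and 8760 CPM. Of 20 aminoacyl-tRNA synthetases, which charge tRNA with amino acids, 19 were higher and 0 lower, with a median of 0.44, and IleRS differed by 0.71. Of 72 tested mitochondrial ribosomal proteins, 38 were higher and 0 lower, with a median of 0.31. That last count was 13 with scaling by totals, 25 without Psi RNAi replicate 1 and 23 without Myc RNAi replicate 1. Rack1, a scaffold on the small subunit (1.02), and Nacalpha, of the complex that shields nascent chains (1.07), were looked at after their values were seen and had differences like those of the ribosomal proteins.

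**Figure D3:**
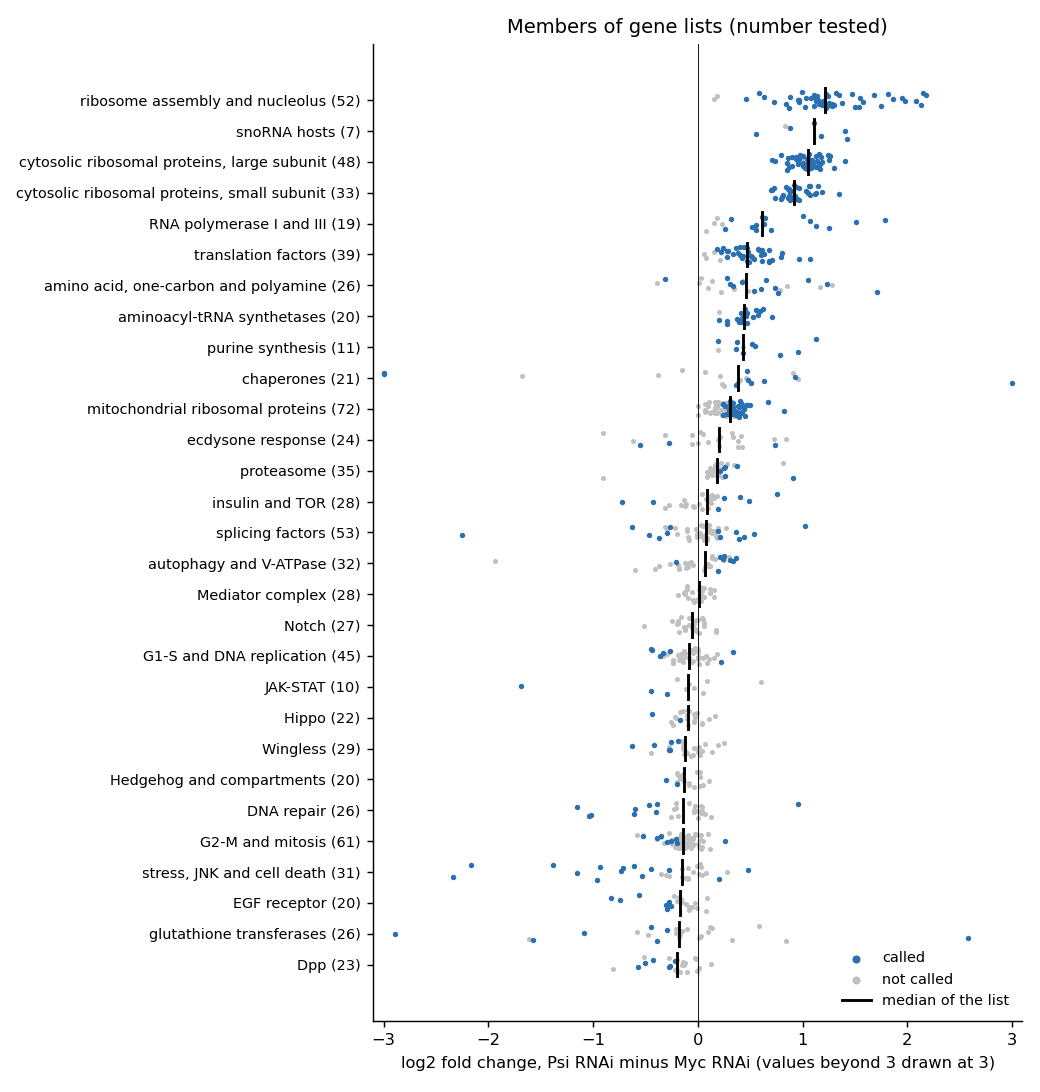
Log2 difference Psi RNAi minus Myc RNAi (horizontal axis) of the tested members of each gene list, 1 point per gene, blue where called and with a black bar at the median of the list, with values beyond 3 drawn at 3. The lists of the protein synthesis machinery lie to the right of 0, with medians from 0.31 to 1.21, and the stress, DNA repair and signalling lists have medians between -0.20 and -0.06.

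Biosynthesis that feeds growth followed in the same direction. Of 11 purine synthesis genes, 9 were higher in Psi RNAi and 0 lower, with a median of 0.43, among them ras, the fly IMP dehydrogenase (1.13), and AdSL, adenylosuccinate lyase (0.78). The gene r-l, which encodes UMP synthase of the pyrimidine pathway, stood at 119, 122 and 121 CPM in Psi RNAi and at 46.1, 46.8 and 46.6 CPM in Myc RNAi. It was 1.37 ± 0.04 higher in Psi RNAi, with no overlap (adjusted p = 4.18e-08). Of 26 amino acid, one-carbon and polyamine genes, 12 were higher and 1 lower, with a median of 0.46. SpdS, spermidine synthase, is not in that list and was looked at after its values were seen. It stood at 68.6, 72.1 and 60.7 CPM in Psi RNAi and at 12.6, 11.6 and 12.6 CPM in Myc RNAi (2.45 ± 0.07, adjusted p = 4.18e-08). Within the list, AsnS, asparagine synthetase, stood at 47.4, 39.1 and 34 CPM against 13, 11.8 and 11.8 CPM (1.71). Nmdmc, a mitochondrial enzyme of folate metabolism, differed by 1.23, and Eip55E, the cystathionine gamma-lyase gene, by 0.74. The member lower in Psi RNAi was pug, at -0.31, which lost its call when any of 6 single libraries was left out.

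Of 21 tested chaperone genes, 7 were higher in Psi RNAi, 2 were lower and 12 were not called, with a median of 0.38. The shares were 33.3% higher and 9.52% lower, the latter at the 9.53% over all genes, against 12.8% higher over all genes. Without Psi RNAi replicate 1 and Myc RNAi replicate 3 together, 6 were higher and 0 lower. The lower genes were heat-induced Hsp70 genes. Among the higher were Hsc70-2, described with the largest folds, Hsp60, the mitochondrial chaperonin (0.93), and Hsc70-4, the main cytosolic Hsp70 of unstressed cells (0.63). All 5 subunits of the cytosolic chaperonin looked at after values were seen were higher, with a median of 0.81. Hsp70Bb, a heat-inducible gene, stood at 0.272, 0.316 and 0.305 CPM in control, at 44, 19.3 and 69.5 CPM in Psi RNAi and at 1233, 728 and 1091 CPM in Myc RNAi. It was above control in both knockdowns and lower in Psi RNAi than in Myc RNAi, at a difference of -4.52 ± 0.49 (adjusted p = 5.17e-04). The inducible Hsp70 genes are nearly identical copies, so how their read pairs were divided is uncertain, and without Psi RNAi replicate 1 and Myc RNAi replicate 3 the adjusted p of Hsp70Bb was 0.011. Other heat shock genes of the list did not share its direction as a group. Hsp26 (0.96), Hsp83 (0.91), Hsp27 (0.46), Hsp23 (0.40) and Hsp67Ba (0.21) had positive differences, Hsp68 (-0.38) and Hsp67Bc (-1.68) negative ones, and none was called. Of 35 tested proteasome subunits, 6 were higher in Psi RNAi (17.1%, near the 12.8% over all genes) and 0 lower, with a median of 0.18. The higher count was 1 with scaling by totals. It ranged from 1 (without Psi RNAi replicate 2) to 11 (without Myc RNAi replicate 2) when single libraries were left out.

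Of regulators of growth, 5 of 28 genes of the insulin and TOR pathway were higher in Psi RNAi and 2 lower, shares of 17.9% and 7.14% against 12.8% and 9.53% over all genes, with a median of 0.09 that became -0.06 with scaling by totals. The higher count was 3 without Psi RNAi replicate 2 and 3 with scaling by totals. Higher were srl, the PGC-1 homologue of mitochondrial gene control (0.76), S6k, the kinase of ribosomal protein S6 (0.49), and foxo, the transcription factor held inactive by insulin signalling (0.40). Of 32 tested autophagy and V-ATPase genes, 7 were higher (21.9% against 12.8% over all genes) and 1 lower, with a median of 0.07 that became -0.09 with scaling by totals. The higher count was 1 with scaling by totals, 1 without Psi RNAi replicate 1 and Myc RNAi replicate 3 together, 2 without Myc RNAi replicate 1 and 3 without any one of Psi RNAi replicates 1 and 2 and Myc RNAi replicate 3.

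Of 31 tested genes for stress, JNK signalling and cell death, 12 were called lower in Psi RNAi than in Myc RNAi, 2 were higher and 17 were not called. The shares were 38.7% lower and 6.45% higher, against 9.53% and 12.8% over all genes, with a median of -0.15. The lower count ranged from 8 (without Myc RNAi replicate 1 or replicate 2) to 12 when single libraries were left out. It was 7 without Psi RNAi replicate 1 and Myc RNAi replicate 3. Xrp1, a bZIP factor known for its part in the loss of cells with too few ribosomal proteins, stood at 656, 660 and 546 CPM in Psi RNAi and at 1521, 1265 and 1353 CPM in Myc RNAi, with controls at 612, 609 and 587 CPM. The Psi RNAi libraries were around the control level and the Myc RNAi libraries were all above it, for a difference of -1.15 ± 0.09 (adjusted p = 6.83e-06). CG6272, which encodes the Xrp1 partner Irbp18, differed by -0.96.

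Gadd45, a stress-induced activator of kinase signalling, stood at 34.9, 24.6 and 26.2 CPM in Psi RNAi and at 165, 127 and 142 CPM in Myc RNAi (-2.34 ± 0.18, adjusted p = 3.11e-05). The JNK phosphatase and target puc stood at 41.4, 41 and 40.7 CPM against 73.8, 66.1 and 61.2 CPM (-0.71), and another JNK target, the matrix metalloproteinase Mmp1, differed by -0.53. Not all lower members were called above control in Myc RNAi. The cell death gene rpr (-0.93) was called against control in neither knockdown (-0.47 in Psi RNAi, 0.46 in Myc RNAi). Its adjusted p was 0.0109 when Psi RNAi replicate 1 and Myc RNAi replicate 3 were left out. Likewise called in neither were egr, upd1 and upd3. The gene hid (-0.45) was called in Psi RNAi only, at -0.55 there and -0.10 in Myc RNAi. Dredd, a caspase of the immune response outside the list, differed by -0.93 and was looked at after its values were seen. Among the members in the other direction was hep, the kinase that activates JNK. It stood at 158, 164 and 186 CPM in Psi RNAi and at 122, 121 and 122 CPM in Myc RNAi (0.48), against 126, 128 and 132 CPM in control.

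Of 26 DNA repair genes, 8 were lower in Psi RNAi, 1 was higher and 17 were not called, with a median of -0.14. The shares were 30.8% lower and 3.85% higher, against 9.53% and 12.8% over all genes. Ku80 and Irbp, the subunits of the Ku complex that binds broken ends, differed by -1.02 and -1.04. Ku80 stood at 27.8, 26.8 and 28.2 CPM in Psi RNAi and at 60.2, 49.2 and 58.3 CPM in Myc RNAi, with no overlap. The polymerase gene mus205 differed by -1.15 and mre11, of the complex that trims broken ends, by -0.60. The exception was phr6-4, the photolyase of 6-4 photoproducts, at 19.1, 17.8 and 17.1 CPM against 10.2, 8.26 and 9.37 CPM (0.96).

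Glutathione transferases are detoxifying enzymes that stand in gene clusters. Of 26 tested genes, 1 was higher in Psi RNAi and 6 lower, with a median of -0.18, and 11 were lower with scaling by totals. The shares were 3.85% higher and 23.1% lower, against 12.8% and 9.53% over all genes. GstD9 (chromosome 3R, 12366163-12367564) stood at 20.3, 17.9 and 17.2 CPM in control, at 74.7, 70.4 and 69.9 CPM in Psi RNAi and at 13.2, 10.4 and 12.4 CPM in Myc RNAi. It rose with Psi RNAi and fell with Myc RNAi, for a difference of 2.58 ± 0.10 (adjusted p = 7.94e-08). Of its neighbours, GstD1 and GstD3 went the other way. GstD1, at a gap of 252 bases from GstD9, differed by -0.39 and GstD3 by -1.57. GstD10, 427 bases from GstD9, had a difference of 0.84 ± 0.45 that was not called. Its log2 changes from control had the signs of those of GstD9, at 0.39 in Psi RNAi and -0.45 in Myc RNAi. GstD3 stood at 20.4, 22.1 and 18.8 CPM in Psi RNAi and at 60.8, 57.9 and 63.7 CPM in Myc RNAi, on either side of controls at 35.9, 29.9 and 31.8 CPM. GstE6 stood at 1.51, 1.48 and 1.38 CPM against 13, 8.3 and 11.2 CPM (-2.89).

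**Figure D4:**
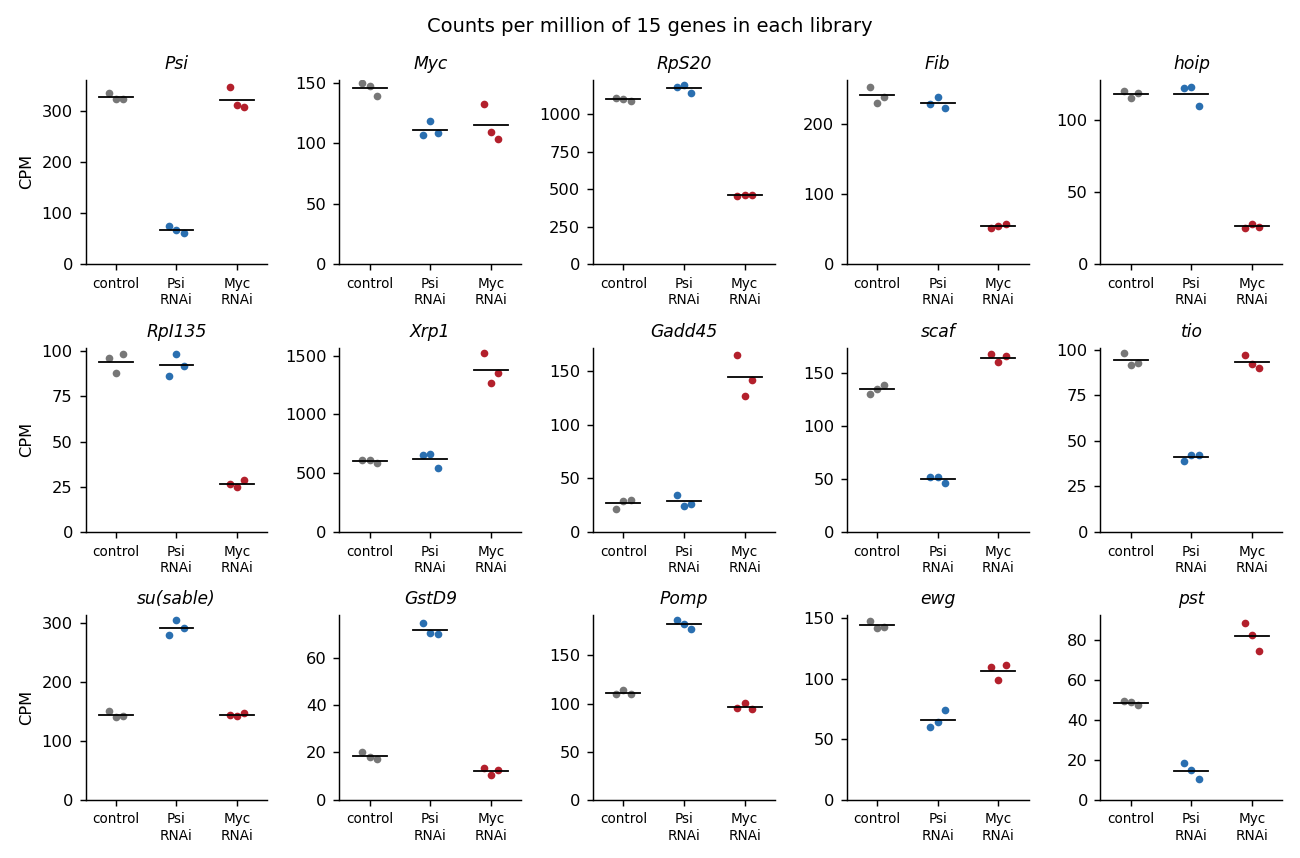
CPM (vertical axis) of 15 genes in each library, in 1 panel per gene with control, Psi RNAi and Myc RNAi side by side, points for libraries and a line at the group mean. RpS20, Fib, hoip and RpI135 are near control in Psi RNAi and low in Myc RNAi, Xrp1 and Gadd45 are high in Myc RNAi, and su(sable) and tio depart from control in Psi RNAi.

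Among the genes of smallest p called against control in Psi RNAi only was su(sable). The gene su(sable), a nuclear RNA-binding protein that lowers the level of some transcripts, stood at 151, 140 and 143 CPM in control, 280, 305 and 292 CPM in Psi RNAi and at 144, 142 and 147 CPM in Myc RNAi. Each Psi RNAi library lay above all libraries of the other groups, at a difference of 1.02 ± 0.05 (adjusted p = 1.96e-07). Dredd, at a gap of 344 bases, was lower in Psi RNAi. SF1, the branch-point binding protein of splicing, stood at 346, 338 and 340 CPM in Psi RNAi and at 231, 230 and 244 CPM in Myc RNAi (0.54, adjusted p = 4.63e-06). The splicing factor pUf68, also called Hfp, fell with Psi RNAi, at 228, 212 and 250 CPM against 376, 334 and 356 CPM (-0.63). Over the 53 tested splicing factors, 7 were higher in Psi RNAi and 6 lower (13.2% and 11.3%, near the 12.8% and 9.53% over all genes), with a median of 0.08 that became -0.08 with scaling by totals. The lower count was 12 with scaling by totals, 2 without Psi RNAi replicate 1 and Myc RNAi replicate 3 and 3 without Psi RNAi replicate 1 or replicate 2.

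Other genes of small p called against control in Psi RNAi only were Nca, a neuronal calcium sensor (-0.73), CG32163 (1.11), tio and Cubn. The transcription factor gene tio (chromosome 2L, 22019208-22025734), a teashirt paralogue, stood at 39, 42.2 and 42.4 CPM in Psi RNAi and at 97.3, 92.4 and 90.1 CPM in Myc RNAi (-1.18 ± 0.05, adjusted p = 1.76e-07), the latter at the level of the controls. Cubn, the cubilin receptor of protein uptake, stood at 12.3, 10.4 and 14.4 CPM against 70.1, 67.6 and 60.4 CPM (-2.42). Chosen after their values were seen, the adhesion receptor Cirl (-0.60), the RNA-binding proteins Caper (-0.53) and nonA (-0.42), the translational repressor brat (-0.38), the kinase Pkc98E (-0.68) and the transporter MFS17 (-1.30) also fell with Psi RNAi and were not called with Myc RNAi.

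Of 12 tested pigment and marker genes 2 were higher in Psi RNAi, y and pr (16.7%, near the 12.8% over all genes), and 0 lower. The body colour gene y stood at 4.53, 4.76 and 3.97 CPM in Psi RNAi and at 0.225, 0.167 and 0.283 CPM in Myc RNAi, with controls at or below 0.121 CPM (4.27 ± 0.39, adjusted p = 2.84e-05). The eye colour gene w, whose miniature form is a usual marker of transgenes, stood at 73.5, 79.7 and 74.8 CPM in control, 488, 251 and 633 CPM in Psi RNAi and at 187, 178 and 163 CPM in Myc RNAi. The groups did not overlap for w, but the difference of 1.38 ± 0.30 was not called (adjusted p = 0.0107), as the Psi RNAi libraries varied. Transgene copies and the native genes of y and w cannot be told apart in these counts.

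In 31 genes the knockdowns were called on opposite sides of control, 7 of them higher in Psi RNAi and 24 lower, and the number fell to 8 without control replicate 2 and to 8 without Psi RNAi replicate 1 and Myc RNAi replicate 3 together. Their median absolute difference was 1.57. The gene scaf, a secreted protease homologue of the disc, stood at 130, 135 and 139 CPM in control, 51.7, 51.9 and 46.2 CPM in Psi RNAi and at 168, 160 and 166 CPM in Myc RNAi. It was lower than control in each Psi RNAi library and higher in each Myc RNAi library, at a difference of -1.72 ± 0.05 (adjusted p = 4.46e-08). Ady43A, an adenosine kinase gene named Adk3 in the reference, behaved alike, at 16.5, 15.7 and 15.8 CPM against 80.4, 67.7 and 77.4 CPM around controls of 47.7, 41.8 and 46.2 CPM (-2.23). The non-coding genes CR43087 (-3.91) and CR43086 (-3.33) and the uncharacterised CG15784 (-2.91) were among the 10 lower genes of smallest p and likewise fell in Psi RNAi and rose in Myc RNAi.

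Of the genes on the other side, Pomp, which encodes the proteasome maturation protein, stood at 110, 114 and 110 CPM in control, 187, 183 and 177 CPM in Psi RNAi and at 95.6, 101 and 93.8 CPM in Myc RNAi (0.91, adjusted p = 2.55e-07). The mitochondrial ribosomal protein gene mRpL37 differed by 0.82, CG16833, named TTLL4A in the reference, by 1.13 and CG7646 by 1.58. Chosen after their values were seen, Dhod, of pyrimidine synthesis (0.56), was higher, and Skeletor (-0.76), the titin homologue sls (-0.88), the microtubule-binding CLIP-190 (-0.56), the vesicle priming gene Cadps (-3.39) and the eIF4E-binding mxt (-0.64) were lower, all with opposite calls against control.

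In 34 genes both knockdowns moved in the same direction from control and still differed from each other, 20 rising and 14 falling. The transcription factor gene ewg, which was named in the study, fell in both, at 148, 142 and 143 CPM in control, 60.4, 64.1 and 74.3 CPM in Psi RNAi and at 110, 99.2 and 111 CPM in Myc RNAi. It fell further in Psi RNAi, with a difference of -0.69 ± 0.08 (adjusted p = 1.01e-04). CR45923, a non-coding gene, rose in both and was 3.83 higher in Psi RNAi, CG13900, the splicing subunit Sf3b3, fell in both and was 0.39 higher, and CG11897 rose in both and had a difference of -1.12. Among genes chosen after their values were seen, Elp2 of the Elongator complex fell by 0.57 in Psi RNAi and by 1.59 in Myc RNAi on the log2 scale. The photolyase gene phr rose by 0.93 and 1.40, and Sam-S, S-adenosylmethionine synthetase, fell by 0.32 and 0.74.

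A further 89 genes were called in both knockdowns in the same direction and not called between them, 44 higher and 45 lower than control. Most extreme were genes with hardly a count left in either knockdown. CG32437 had 196 counts over the controls and 0 over either knockdown, at least 60.1-fold lower than control in Psi RNAi and at least 67.4-fold lower in Myc RNAi, taking 3 counts over the group as the floor. CG13032 had 642 counts over the controls, 2 over Psi RNAi, a ratio of 295 with a 95% counting interval of 81.4 to 2443, and 0 over Myc RNAi, at least 221-fold lower. Cyp6a17, CR41379, Oseg5 and CR43949 were the others of the 6 with the largest change common to both. Chosen after their values were seen, Parp, poly(ADP-ribose) polymerase, changed by -0.76 in Psi RNAi and -0.71 in Myc RNAi, the caspase Strica by -1.0 and -1.34, and obst-B, a chitin-binding protein, by 0.78 and 0.93.

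The largest fold differences lay in genes nearly silent in one knockdown, and many of these were nearly silent in the controls too. Over the controls, CR43767, Gr64a and CR44804 had 0 counts, CG31798 had 2, CG31157 had 4, and Hsc70-2 and CG30059 had 8 each. CG31798 had 567 counts over the Psi RNAi libraries and 0 over the Myc RNAi libraries, at least 212-fold higher, and CG31157 had 214 against 0, at least 80-fold higher. CG30059 and Gr64a, a taste receptor gene, were at least 44.1-fold and at least 41.9-fold higher on 118 and 112 counts against 0. CR44804, with 61 counts against 0, was at least 22.8-fold higher and lost its call when either of 2 single libraries was left out. Hsc70-2 (chromosome 3R, 13044759-13047388), a relative of Hsp70, stood at 33.3, 28.9 and 33.9 CPM in Psi RNAi on 2677 counts. It had 3 counts over Myc RNAi, a ratio of 1001 with a 95% counting interval of 342 to 4855. CR43767 had 1049 counts against 1, a ratio of 1176 (211 to 46503). CG3649 (4.79) and CG11594 (4.29) completed the 8 largest of the higher genes at 1 CPM or more, and CG11594 lost its call when any of 8 single libraries was left out.

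On the other side, CR45822 had 1230 counts over Myc RNAi and 3 over Psi RNAi, a ratio of 366 (125 to 1775), and the segmentation gene ftz had 1012 counts against 1, a ratio of 903 (162 to 35682). CG45781 was at least 33.6-fold lower in Psi RNAi on 0 against 113 counts and lost its call when any of 3 single libraries was left out. Over the controls, CR45822 had 8 counts, ftz had 2 and CG45781 had 12. CR45835 (-5.80), CG8620 (-5.71), CG15597 (-5.04), Hsp70Bb and CG34002 (-4.45) completed the 8 largest of the lower genes. Obp56a, an odorant-binding protein gene expressed at a higher level, stood at 4.97, 4.47 and 4.08 CPM in Psi RNAi and at 45.4, 43.1 and 33.5 CPM in Myc RNAi (-3.17 ± 0.13), with the Psi RNAi libraries near the control level. Intervals and floors cover counting error only.

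Some of these genes adjoin each other. Hsc70-2 lies 342 bases from CG31157, which lies 103 bases from CG7966, and all 3 were higher in Psi RNAi (9.79, 9.26 and 1.45 on the fitted log2 scale, which for genes at 0 depends on a prior count). On 3L, CR45822, pst and CR45835 follow each other at gaps of 676 and 1375 bases and were all lower in Psi RNAi, pst at 18.2, 14.9 and 10.3 CPM against 88.7, 82.6 and 74.8 CPM (-2.50). CR43086 and CR43087 lie 4141 bases apart, and CG33509 (-3.12) and the ion channel gene ppk13 (-2.97) 283 bases apart. CR44804 and CG2528 (3.28) were higher while tio, 26274 bases beyond CG2528, was lower. Over all genes, 51.4% of those higher in Psi RNAi had another higher gene within 10 kb, against 44.3% of genes not called, and 38.4% of the lower genes had another lower gene within that distance, against 33.2%. These shares are a description without a test.

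Genes of dosage compensation and sex had 0 of 11 called, of which 4 had an unadjusted p under 0.05 and DESeq2 called 1. Non-coding genes of the CR series had 43 of 385 tested higher and 38 lower (11.2% and 9.87%, against 12.8% and 9.53% over all genes) and a median of 0.01 that became -0.14 with scaling by totals. These counts were 35 and 55 with scaling by totals and 13 and 21 without Psi RNAi replicate 1 and Myc RNAi replicate 3. They fell to 24 higher without Psi RNAi replicate 2 and to 23 lower without Myc RNAi replicate 1. The Mediator complex, a coactivator that Psi has been reported to contact, had 0 of 28 genes called in either direction, of which 4 had an unadjusted p under 0.05 and DESeq2 called 0, and a median of 0.01 that became -0.14 with scaling by totals.

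Counts of calls in the signalling and cell cycle lists are read against the 9.53% lower and 12.8% higher over all genes. Lower and higher calls were 7 and 0 of 20 for the EGF receptor pathway (35.0% lower, median -0.17) and 6 and 0 of 23 for Dpp (26.1%, -0.20). They were 6 and 0 of 29 for Wingless (20.7%, -0.12) and 3 and 0 of 10 for JAK-STAT (30.0%, -0.09). Nearer the share over all genes were Hippo, at 2 and 0 of 22 (9.09%, -0.09), and Hedgehog and compartment genes, at 2 and 0 of 20 (10%, -0.13). With scaling by totals the lower calls were 13 for the EGF receptor pathway, 16 for Dpp, 14 for Wingless, 5 for JAK-STAT, 12 for Hippo and 11 for Hedgehog. Without Myc RNAi replicate 1 they were 5, 3, 3, 2, 1 and 1, and without Psi RNAi replicate 1 they were 5, 3, 4, 2, 1 and 0. Notch had 0 of 27 called in edgeR, of which 6 had an unadjusted p under 0.05 and DESeq2 called 4, and edgeR called 10 lower with scaling by totals and 3 lower without Psi RNAi replicate 3. G1-S and DNA replication genes had 5 lower and 2 higher of 45 (-0.08), and G2-M and mitosis genes 7 lower and 1 higher of 61 (-0.14), shares of 11.1% and 11.5% lower. With scaling by totals the lower calls were 20 of 45 and 30 of 61, and without Psi RNAi replicate 1 and Myc RNAi replicate 3 they were 0 and 1, so that none of these counts is steady.

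Members with calls that held without any single library show the sizes involved. Of the EGF receptor pathway, rl, the ERK kinase, stood at 94.8, 83.7 and 80.9 CPM in Psi RNAi and at 169, 162 and 131 CPM in Myc RNAi (-0.83), and the transcription factor pnt differed by -0.74. Of the Dpp pathway, sog, a secreted antagonist, differed by -0.43 and cv-2, a BMP-binding protein, by -0.57. Socs36E, a feedback inhibitor of JAK-STAT signalling, differed by -0.45, and pbl, the exchange factor of cytokinesis, by -0.52. Of 24 ecdysone response genes, 1 was higher and 2 lower (4.17% and 8.33%, against 12.8% and 9.53% over all genes), with a median of 0.20. EcR, the ecdysone receptor, stood at 124, 138 and 128 CPM against 204, 178 and 191 CPM (-0.55).

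Surface and matrix genes seen to move after values were known included Fas3 (-0.44), scrib (-0.45), mys (-0.28) and Dg (-0.33), which act in cell junctions, polarity and adhesion. Of 28 tested cuticle protein genes of the Cpr family, 6 were lower in Psi RNAi and 0 higher, with a median of -0.68. Of 11 receptors of the methuselah-like family, 5 were lower and 0 higher, with a median of -0.33. Over all genes, 9.53% were lower and 12.8% higher.

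Of the remaining genes named in the study, stg, the Cdc25 phosphatase that starts mitosis, stood at 248, 184 and 208 CPM in control, 119, 133 and 158 CPM in Psi RNAi and at 207, 180 and 224 CPM in Myc RNAi. The groups did not overlap, but the difference of -0.58 ± 0.14 was not called (adjusted p = 0.0138). It was past the threshold with scaling by totals (adjusted p = 0.00384). The metalloprotease gene tok stood at 498, 547 and 536 CPM in Psi RNAi and at 550, 525 and 542 CPM in Myc RNAi, overlapping and not called (-0.03), while it was called higher than control in both (0.48 and 0.52). Exn stood at 167, 163 and 158 CPM against 229, 219 and 217 CPM, with controls at 146, 152 and 147 CPM (-0.45 ± 0.04, adjusted p = 2.04e-05).

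The glypican genes dally (-0.28) and dlp (-0.27) were called lower in Psi RNAi than in Myc RNAi. The call of dally was lost when any of 3 single libraries was left out, and that of dlp when any of 5 was. Neither gene was below control in Psi RNAi. Log2 changes from control were 0.20 in Psi RNAi and 0.48 in Myc RNAi for dally, and 0.21 and 0.48 for dlp, called in Myc RNAi only. The splicing-related Saf-B differed by -0.29. Not called between the knockdowns were chic (0.15), fz2 (-0.04), emp (-0.07), B52 (-0.08) and CR44811 (-0.24).

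Markers of tissues that could adhere to a dissected disc were summed in each library. Fat body markers, such as the larval serum proteins, summed to 6863, 762 and 262 CPM in Psi RNAi and to 2462, 1091 and 826 CPM in Myc RNAi, with controls at 11213, 3717 and 707 CPM. The knockdown groups overlapped (exact permutation p = 1). Gut and salivary gland markers summed to 1865, 22.4 and 20.4 CPM in Psi RNAi and to 7.66, 25.4 and 502 CPM in Myc RNAi (exact permutation p = 0.7), so that Psi RNAi replicate 1 and Myc RNAi replicate 3 each held a large amount. Of the 7 fat body and 10 tested gut and salivary gland markers, 0 were called by edgeR or by DESeq2 and 0 had an unadjusted p under 0.05. Haemocyte, neuron and glia, and muscle markers had 0 of 8, 7 and 8 called, with 1 in each list at an unadjusted p under 0.05, and DESeq2 called 1, 0 and 0. The sum of neuron and glia markers was 73.1, 64.8 and 71.3 CPM in Psi RNAi against 91, 92.5 and 82.4 CPM in Myc RNAi (exact permutation p = 0.1). Of 7 tracheal markers, the FGF receptor gene btl was called higher in Psi RNAi (1.0) and the other 6 were not called, with a median of -0.03. Their sum went the other way, at 2616, 2587 and 2571 CPM in Psi RNAi against 2622, 2704 and 2648 CPM in Myc RNAi (exact permutation p = 0.1).

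The wing disc markers summed to 4912, 5386 and 5407 CPM in Psi RNAi and to 5761, 5654 and 5478 CPM in Myc RNAi, without overlap (exact permutation p = 0.1), with controls at 5862, 5680 and 5865 CPM. Of the 19 markers 2 were called, vn and Ance, both lower in Psi RNAi (10.5%, near the 9.53% over all genes), and 11 were called lower with scaling by totals. In pooled discs, fewer cells of a type and less RNA per cell cannot be told apart. The part that adhering tissue has in any single difference was not tested, and without Psi RNAi replicate 1 and Myc RNAi replicate 3 the number of genes called was 1315, of which 869 were higher and 446 lower.

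**Figure D5:**
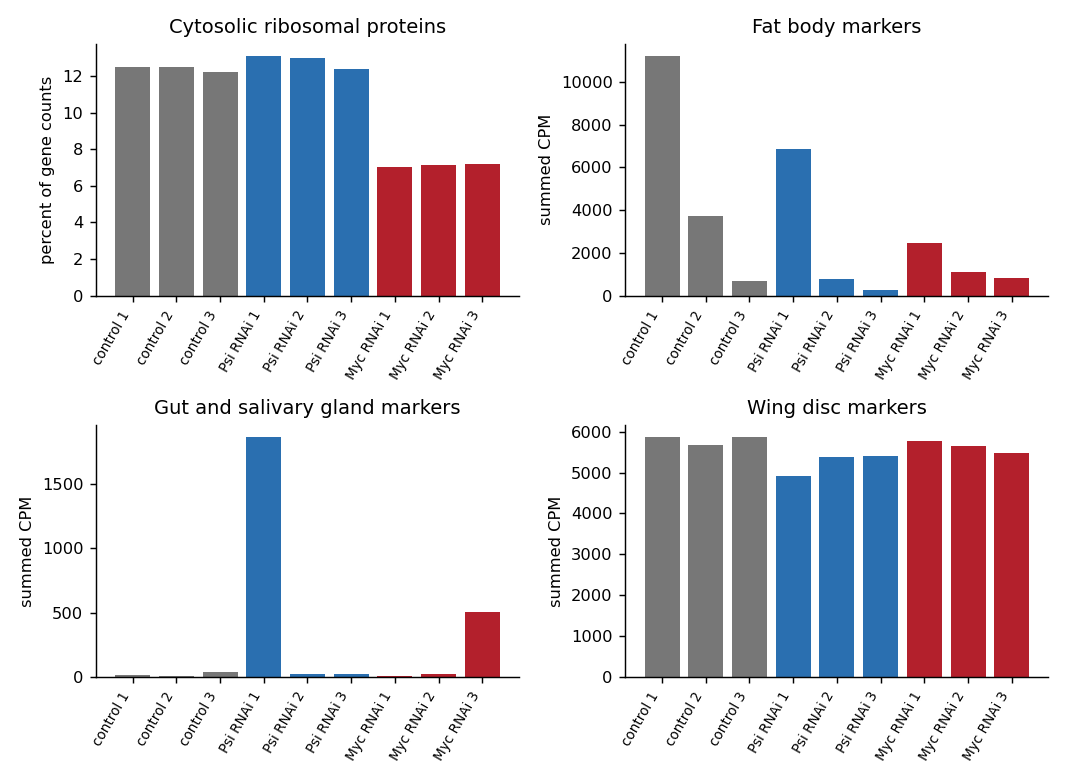
Ribosomal protein share of gene counts in percent (first panel) and summed CPM of fat body, gut and salivary gland, and wing disc markers (other panels) in each of the 9 libraries, 1 bar per library coloured by group. The ribosomal share is 12.2% to 13.1% in control and Psi RNAi and 7.04% to 7.19% in Myc RNAi, while the fat body sums overlap between groups and the gut sums are carried by Psi RNAi replicate 1 and Myc RNAi replicate 3.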

How the data were processed

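Polyadenylated RNA from the wing discs was sequenced from stranded libraries, 3 per group. The authors deposited raw counts of read pairs by gene, obtained with FastQC 0.11.6, TopHat2 2.1.1 (FlyBase release of the fly genome) and HTSeq 0.6.1 on the reverse strand, with 1 library per file. The 5 summary lines that end each file entered neither library sizes nor tests. Read pairs without a feature were 1.28 to 1.9%, ambiguous pairs 1.52 to 1.8% and pairs without a unique position 9.52 to 15.8% of the total, highest in Myc RNAi. Tables deposited by the authors with DESeq2 1.12.0 results (fold changes and p-values of each knockdown against control) and the splicing tables were not used, nor were 18 per-library columns in them. Only gene names were taken from them, for 13376 genes, and 4053 more came from the reference table of Release 6.

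Counts were filtered with filterByExpr, scaled by TMM and fitted over all 9 libraries with edgeR 4.0.16 (robust quasi-likelihood, limma 3.58.1, R 4.3.3), with Benjamini-Hochberg adjustment over all 9235 genes and a threshold of 0.01. A standard error is the absolute log2 difference divided by the square root of F. Total counts ranged from 26287040 to 34401160 per library, and the common biological coefficient of variation was 23%. Sums over marker lists and the ribosomal protein share were compared by exact two-sided permutation of libraries. The scripts were tested on simulated data. The members and the 32 gene lists were chosen with earlier results of these data known. Lists are given as counts of called members and medians, without a set test.

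Genes named are Psi, Myc and those named in the study, the 10 of smallest p in each direction, the 8 of largest fold in each direction with a group mean of at least 1 CPM and no overlap, up to 4 members per list and direction and members against it, and up to 8, 5 or 6 of the smaller classes, with others marked as chosen after values were seen. Not every gene that fits is printed. Alternatives were other scaling, no filter, only the 6 knockdown libraries, DESeq2 1.42.0, a threshold of 0.05, a replicate block and leaving out libraries.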

Additional observations from a re-analysis of the deposited data

How the results depend on the processing

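Of the genes called between the knockdowns, 0 were called in the other direction under any alternative, and 4262 of 4652 values of single named genes kept their direction and their side of the threshold. Called genes, 2060 as reported, numbered 1393 to 1862 when single libraries were left out, with 874 to 1089 higher in Psi RNAi and 519 to 779 lower, the lowest without Myc RNAi replicate 1 (519) and without Psi RNAi replicate 2 (579). In the same settings the classes by control ranged from 849 to 1087 genes for Myc RNAi only, 75 to 167 for Psi RNAi only, 14 to 23 for both in the same direction, 8 to 28 for both in opposite directions and 364 to 764 for neither. The Psi RNAi class held 91, 100 and 95 genes without control replicates 1, 2 and 3, 86 and 75 without Psi RNAi replicates 1 and 2 and 118 without Myc RNAi replicate 3. The opposite class held 10, 8 and 11 without control replicates 1, 2 and 3, 17 and 14 without Psi RNAi replicates 1 and 2, and 17 and 16 without Myc RNAi replicates 1 and 3, and the same-direction class held 18, 19 and 17, then 14, 18 and 17, and 21 without each control, each Psi RNAi library and Myc RNAi replicate 1. The class called in neither held 392 without Psi RNAi replicate 2 and 364 without Myc RNAi replicate 1. Without Psi RNAi replicate 1 and Myc RNAi replicate 3 together there were 1315 calls, 446 of them lower, and 46, 7, 8 and 270 genes in the classes Psi RNAi only, same, opposite and neither. At a threshold of 0.05 there were 3215 calls, 1457 lower, and 427, 102 and 98 genes in the classes Psi RNAi only, same and opposite. With scaling by totals, 761 genes were higher, 2132 lower, 1924 in the Myc RNAi class and 48 in the opposite class. DESeq2 gave 368, 78 and 87 genes in the classes Psi RNAi only, same and opposite, and 2621 calls, of which 2056 were calls of edgeR. DESeq2 size factors gave 2036 calls, no filter 1947 and only the 6 knockdown libraries 1630.

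The replicate numbers do not pair the samples in any source, and the deviations of same-numbered Psi RNAi and Myc RNAi libraries correlated at -0.0496, -0.21 and 0.0345. A fit with the replicate block gave 2173 calls, 1933 of them among those reported.

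Some values changed sign between settings, all among genes not called between the knockdowns. Myc was 0.06 without Myc RNAi replicate 1, tok -0.06 to 0.01 over the libraries left out and 0.01 without both doubted libraries, chic 0.00 with scaling by totals and Parp -0.18 to 0.04 over the libraries left out. CG32437, at 0 counts in both knockdowns, was -0.01 with the replicate block and 0.00 without both libraries, and CR41379 ranged from -2.31 to 0.00 over the libraries left out. Cyp6a17 ranged from -1.38 to 1.17 over the libraries left out, lowest without Psi RNAi replicate 1, and was -1.17 without both libraries. Oseg5 was -0.09 with scaling by totals, -0.39 without both libraries and -0.24 to 0.47 when single libraries were left out. CR43949 ranged from -0.40 to 0.45 over the libraries left out. The median of the fat body list, 1.0 as reported, was -0.05 with the replicate block, -1.82 without both libraries and -1.56 without Psi RNAi replicate 1. That of the gut and salivary gland list, -1.68, was 0.24, 0.05 and, without Myc RNAi replicate 3, 2.83, that of haemocytes, -0.38, was 0.15 without Myc RNAi replicate 1, and that of muscle, 0.03, was -0.12 with scaling by totals. The causes were not tested. With 3 libraries per group, genes with few counts and differences under about the spread between pools were not resolved.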
